A study of Mus musculus with 10 samples.

Results

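Gene expression in quadriceps muscle was compared between BL10 (C57Bl/10ScSnOlaHsd) and DBA (DBA/2OlaHsd), inbred mouse strains with wild-type muscle. The comparison rested on 3 of the 10 arrays of the study. The array that set the strains against each other directly held BL10 2 (animal 2 of BL10) in Cy5 and DBA 1 in Cy3. The other 2 arrays held DBA 1 against BL6 1 and BL6 1 against DBA 2, with the first animal of each pair in Cy5. They were chosen because they close a chain from BL10 2 to DBA 2 and give an estimate of the gene-wise dye effect. BL6 is C57Bl/6JOlaHsd, and the study also held BALB (BALB/cOlaHsd) and CBA (CBA/CaOlaHsd). All mice were males, 2 of each strain, bought when 6 weeks old and kept until an age of 8 weeks, with no engineered allele or treatment described. Every value is a log2 ratio of Cy5 over Cy3, so 1 stands for a 2-fold difference. The values hold no spot brightness, and the identity of the tissue therefore could not be checked from the levels of muscle markers.

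BL10 is the strain on which the mdx mouse is kept, a model of Duchenne muscular dystrophy that lacks dystrophin. Dystrophin ties the actin cytoskeleton of the muscle fibre to the surrounding matrix through a complex of dystroglycan, sarcoglycans, syntrophins and dystrobrevins. Genetic background is known to change the course of muscular dystrophy in mice, and genes of TGF-beta signalling, matrix and membrane repair are among those studied as modifiers. Quadriceps is mostly a fast muscle, whose fibres are rich in fast isoforms of the troponins, in calcium pumps and in parvalbumin, which buffers calcium.

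The BL10 minus DBA difference was computed as the direct ratio minus the dye estimate, which is the mean of the ratios on the other 2 arrays. The longer way from BL10 2 to DBA 2, with the dye estimate subtracted once for each of its 3 arrays, gave the same number for each of 7697 features, because it is the same sum of the 3 ratios. It is therefore not a second measurement. In terms of animals, the difference holds BL10 2 with a weight of 1, DBA 1 with a weight of -1.5 and DBA 2 with a weight of 0.5, and any difference between the 2 DBA animals enters it through the dye estimate. With 1 BL10 animal, this difference has no test. The check on it was the agreement of the 2 spots that each feature has on every slide, which are technical repeats.

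Agreement between the spots was moderate. Across features, the first and the second spot correlated at r = 0.455 for the dye-corrected difference, against 0.813 on the direct array itself, 0.716 on the array of DBA 1 against BL6 1 and 0.645 on the array of BL6 1 against DBA 2. The spots had the same sign for 66.6% of the features. The mean of the spots had an SD of 0.296 over all features, and the difference between the spots had an SD of 0.362. Of 45 features whose mean was past 2-fold, 26 were past 2-fold in both spots and 3 had spots of opposite sign. A feature was counted as different below only where both spots were past the fold in the same direction.

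By this count 13 features were higher in BL10 (0.169% of 7697) and 13 were lower (0.169%). Of those higher, 8 had a gene name and 5 had none in the annotation used. The named ones were led by an alpha globin gene, a Y RNA and a U5 small nuclear RNA. All 13 features that were lower had a name, and they stood for 12 genes, among them several of the sarcomere and of fast fibres. Past 1.5-fold in both spots, 66 features were higher (0.857%) and 89 were lower (1.16%).

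**Figure D1:**
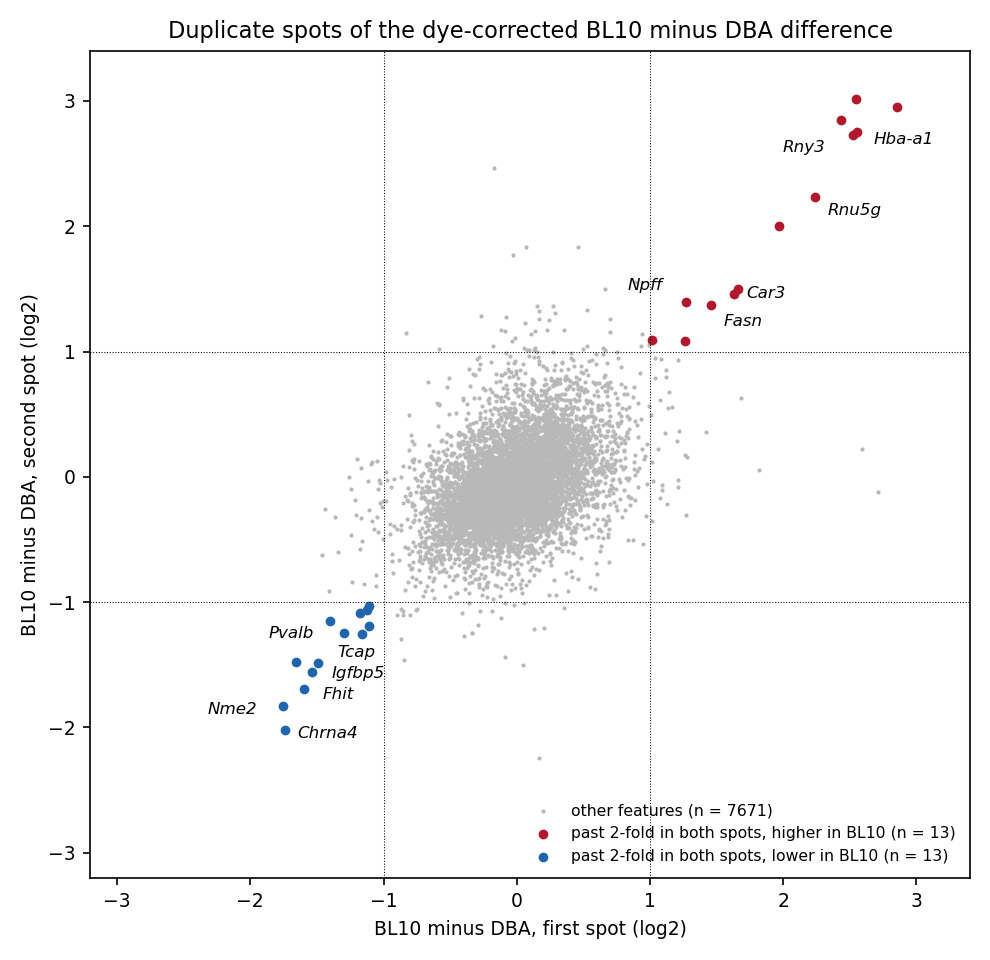
The first spot (x axis) and the second spot (y axis) of the BL10 minus DBA difference after subtraction of the dye estimate, both in log2, with 1 point for each of 7697 features and dotted lines at 2-fold. The 13 features higher in BL10 and the 13 lower in BL10 lie in the corners where both spots are past 2-fold, as their definition requires. Other features past 2-fold in the mean have a spot short of 2-fold. Some are only just short, such as Cmya5 at -0.90 and -1.10, and 3 have spots of opposite sign.

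Values from arrays outside the 3 were set beside these. The other BL10 animal was compared with DBA 2 through BALB, as the ratio of BL10 1 over BALB 2 minus the ratio of DBA 2 over BALB 1. Both ratios have BALB in Cy3, so that the dye effect cancels, and the 2 BALB animals were taken as alike. This route shares DBA 2 with the first difference, where that animal has a weight of 0.5, while here it has a weight of -1. By this route 116 features were past 2-fold in both spots higher in BL10 (1.51%) and 10 were lower (0.13%), and the spots correlated at r = 0.593. At 1.5-fold the counts were 341 higher (4.43%) and 236 lower (3.07%). The direct ratio with no dye subtracted, which shares neither an animal nor an array with the route, correlated with it at r = -0.02 across the 7697 features, which all lie on the same slides and carry the dye effect in the direct ratio only.

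A test came from the fit of 8 arrays in limma, with a term for each strain, a dye term for each gene and the animal as the replicate. The 2 remaining arrays were left out, since the values labelled BL6 2 over CBA 1 and those labelled BALB 1 over CBA 2 did not differ at any spot. The fit is not independent of the values above, since the direct array entered BL10 minus DBA with a weight of 0.571 and the arrays of the BALB route with 0.429 and -0.458. At a false discovery rate (FDR) of 10% after Benjamini-Hochberg adjustment over 7697 features, 4 features were higher in BL10 (0.052%) and 1 was lower (0.013%). Unadjusted p was under 0.05 for 198 features higher in BL10 (2.57%) and for 299 lower (3.88%). With the direct array left out, 0 features passed in either direction, 236 higher and 161 lower were under an unadjusted p of 0.05, and the ordinary test without shared spread also passed 0.

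Of the named features higher in BL10, a small nuclear RNA was the 1 that passed in the fit. Rnu5g, a gene of the U5 RNA of the spliceosome (GenBank M10336), had a direct ratio of 2.21. Its ratios were 0.01 for DBA 1 over BL6 1 and -0.07 for BL6 1 over DBA 2, so that the dye estimate was close to 0. The dye-corrected spots were 2.24 and 2.24 (mean, 4.71-fold), and the BALB route gave 1.98 and 1.80. All 4 spot values lay far above 0 and close to each other. In the fit, Rnu5g was higher in BL10 by 2.07 (SE 0.24, limma adjusted p = 0.0267). The adjusted p was between 0.000193 and 0.765 over 19 alternative settings, and 14 of them kept the call.

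Rny3, one of the Y RNAs, which are bound by the Ro60 protein, had a direct ratio of 1.68. The ratios of the other 2 arrays were -1.20 and -0.68, a dye estimate of -0.94, which raised the spots to 2.53 and 2.73. Through BALB its spots were 1.69 and 1.73. The fit gave 2.19 (SE 0.41, limma adjusted p = 0.339), which did not pass. For Rny1, another Y RNA, the dye-corrected spots were 1.21 and 0.93 and those through BALB 0.71 and 0.71, and the fit did not pass either, at 0.87 (SE 0.48, limma adjusted p = 0.719). The 3 RNAs thus lay above 0 in every spot of both comparisons. Rnu6, the U6 RNA of the same spliceosome, had spots of 0.30 and 0.47 and through BALB of 0.02 and 0.01. Rnu3a and Snora74a, which guide the processing of ribosomal RNA, had means of -0.27 and -0.25. Of the 6 small RNAs with a feature, 3 were past 1.5-fold higher in both spots and 0 lower, with a list median of 0.73 against -0.06 over all features. The shares over all features were 0.857% higher and 1.16% lower.

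Hba-a1, an alpha globin chain of haemoglobin, had the largest difference of the named features, with a direct ratio of 2.57, a dye estimate of -0.09 and spots of 2.56 and 2.76 (mean, 6.3-fold). Whether the oligonucleotide tells Hba-a1 from the near-identical Hba-a2 is not known here. Through BALB the spots were lower, at 0.75 and 0.92, and the fit gave 1.84 (SE 0.66, limma adjusted p = 0.719). Globin mRNA is a marker of red blood cells. The list of red blood cell markers had 4 genes on the array, and the other 3, Slc4a1, Epb42 and Alas2, had spots between -0.47 and 0.82 with 0 of 3 past 1.5-fold in both. The part of blood in the muscle samples was not tested, and a higher number of red cells cannot be told apart from more globin mRNA per cell.

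Car3 and Fasn were higher in BL10 as well. Car3, a carbonic anhydrase that is abundant in slow fibres and in fat cells, had a direct ratio of 2.09, a dye estimate of 0.55 and spots of 1.63 and 1.46, and its spots through BALB were 2.49 and 2.37. In the fit it did not pass, at 1.99 (SE 0.49, limma adjusted p = 0.719). Fasn, which builds long-chain fatty acids, had a direct ratio of 1.90, spots of 1.46 and 1.37 and, through BALB, spots of 2.56 and 2.44. Its estimate in the fit had a wide error, at 1.98 (SE 1.29, limma adjusted p = 0.735). Other genes of fat synthesis lay above 0 with less agreement. Scd1, the stearoyl-CoA desaturase, had a direct ratio of 1.98 and a dye estimate of 1.19. Its spots were 1.22 and 0.37 and, through BALB, 3.09 and 2.85. Acaca, the acetyl-CoA carboxylase, had a direct ratio of 1.10 and a dye estimate of 0.58. Its spots were 0.59 and 0.47 and, through BALB, 1.48 and 1.79.

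The list of fat synthesis and oxidation had 24 features, of which 1, Fasn, was past 1.5-fold higher in both spots and 0 were lower, with a median of 0.05. Through BALB, 5 were higher and 0 lower, with a median of 0.38. Over all features, 0.857% were higher and 1.16% lower by the dye-corrected difference, and 4.43% and 3.07% through BALB. Markers of fat cells were measured beside these genes. Of 9, 1 was past 1.5-fold higher in both spots, the lipid droplet gene Cidec at 0.70 and 0.75. The direct ratio of Cidec was 0.19 and its dye estimate -0.54. Fabp4, the fatty acid binding protein of fat cells, had spots of 0.01 and -0.05, from a direct ratio of 1.21 and a dye estimate of 1.23. The dye effect of the fit of 8 arrays was 0.24 for this feature, and the BALB route gave 2.89 and 2.58. For Adipoq, which codes for adiponectin, the spots were -0.09 and -0.22 and, through BALB, -0.05 and 0.25. Through BALB 1 of the 9 markers, Fabp4, was past 1.5-fold higher and 0 lower, and the list had medians of -0.02 and 0.10 in the 2 comparisons. The part of fat tissue in the samples was not tested. The list of slow fibre genes, which holds Car3, had a median of -0.06 over 8 features, and Car3 was its only member past 1.5-fold in both spots. The slow troponins Tnni1, Tnnt1 and Tnnc1 had spots between -0.09 and 0.12. Through BALB these troponins had spots between -0.64 and -0.02. The list median was then -0.18, and Car3 was again the only member past 1.5-fold in both spots.

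The other named features higher in BL10 were of unlike function. Npff codes for a precursor of neuropeptide FF, and its dye-corrected spots were 1.27 and 1.40, with 1.35 and 1.13 through BALB. It was the next named feature above 0 by adjusted p in the fit after Rnu5g, at 1.29 (SE 0.21, limma adjusted p = 0.201). Tbca, a cofactor of tubulin folding, had spots of 1.27 and 1.08, which came from a dye estimate of -1.70, since its direct ratio was -0.52. Through BALB it was lower, at -0.67 and -0.47. Brd2, a bromodomain protein that binds acetylated histones, lay just inside the threshold with spots of 1.01 and 1.09, and its spots through BALB were -1.87 and -0.36. Just outside the threshold were a feature with no name, with spots of 0.995 and 1.05, and the tropomyosin gene Tpm2, with spots of 1.04 and 0.95.

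Among the 5 features with no name, 3 passed in the fit. The feature at spot 14578 had spots of 2.43 and 2.85 and, through BALB, of 2.49 and 2.55. It had the smallest p of all features, with an estimate of 2.58 (SE 0.18, limma adjusted p = 0.00105), and passed in 17 of 19 alternative settings, in which the adjusted p was between 5.29e-08 and 0.493. The feature at spot 11787 had spots of 1.66 and 1.502 and, through BALB, of 2.01 and 2.36 (fit 1.87, SE 0.21, limma adjusted p = 0.0267). The feature at spot 13590 had spots of 1.97 and 2.001 and, through BALB, of 0.77 and 1.29 (fit 1.55, SE 0.22, limma adjusted p = 0.0752). The last 2 passed in 14 and 11 of the 19 settings. The feature at spot 10809 did not pass (fit 1.74, SE 0.81, limma adjusted p = 0.719). Its spots were 2.85 and 2.95 but, through BALB, only 0.16 and 0.43. The feature at spot 6653 had spots of 2.55 and 3.01 and, through BALB, of 4.42 and 4.46. It did not pass either (fit 3.59, SE 0.63, limma adjusted p = 0.26).

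**Figure D2:**
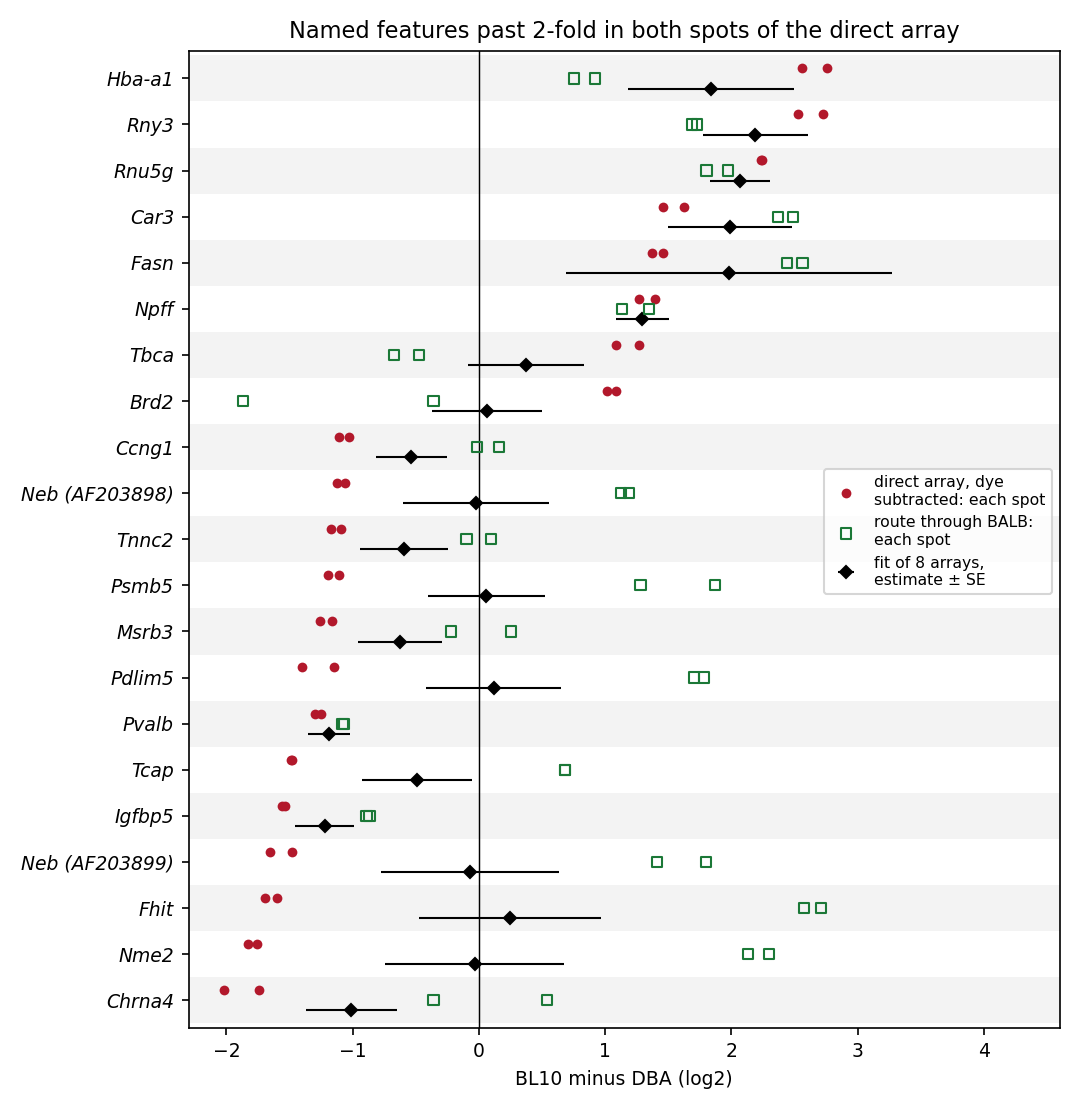
BL10 minus DBA in log2 (x axis) for the 21 named features past 2-fold in both spots of the dye-corrected direct array. Circles are the spots of that difference, squares the spots of the route through BALB, and diamonds the estimate of the fit of 8 arrays with its SE. For Rnu5g, Npff and Pvalb the 3 sets of values lie close to each other, while for Nme2, Fhit, Pdlim5, Psmb5, Tcap, Brd2, Tbca and both Neb features both squares lie on the other side of 0.

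Parvalbumin was the gene with a lower level in BL10 that passed in the fit. Pvalb, which binds calcium in the cytoplasm of fast fibres and speeds their relaxation, had a direct ratio of -0.54. The ratio was 1.40 for DBA 1 over BL6 1 and 0.06 for BL6 1 over DBA 2, which made a dye estimate of 0.73 and spots of -1.30 and -1.25 (mean, 2.42-fold lower). The BALB route, which needs no dye estimate, gave -1.07 and -1.08, from a ratio of 0.00 for BL10 1 over BALB 2 and of 1.08 for DBA 2 over BALB 1. All 4 spot values lay within 0.3 of each other. In the fit, Pvalb was lower in BL10 by 2.28-fold, an estimate of -1.19 (SE 0.17, limma adjusted p = 0.0752). The call was kept in 8 of 19 alternative settings, with an adjusted p between 0.0208 and 1, and the estimate was below 0 in every one of them, between -1.31 and -0.18.

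Other proteins of calcium handling in fast fibres were lower with less agreement. Atp2a1, the calcium pump of the fast sarcoplasmic reticulum, had spots of -0.93 and -0.68 and, through BALB, of -0.20 and -0.08. Casq1, the calcium store protein of fast fibres, had spots of -0.67 and -0.60 and, through BALB, of -0.78 and -0.78, and the fit gave -0.68 (SE 0.22, limma adjusted p = 0.719). Both comparisons thus put Casq1 at a similar value below 0, although it did not pass after adjustment. Hrc, a histidine-rich calcium-binding protein of the same store, had spots of -0.70 and -0.95, with 0.67 and 0.46 through BALB. The junctophilin Jph1, which holds the store to the surface membrane, had spots of -0.71 and -0.69, with 0.44 and 0.43 through BALB. Of 20 features of calcium handling, 7 were past 1.5-fold lower in both spots and 0 higher, with a median of -0.38. Over all features, 1.16% were lower and 0.857% higher by this count. The 7 include features X78666 and X83932 of the same gene, Ryr1. Through BALB 2 of the 20 were lower and 1 higher, with a median of 0.04, against 3.07% lower and 4.43% higher over all features.

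The list of fast fibre genes shares Pvalb, Atp2a1 and Casq1 with that of calcium handling. Of 8 features, 4 were past 1.5-fold lower in both spots and 0 higher, and the median was -0.58. The shares over all features were 1.16% lower and 0.857% higher. Through BALB 2 were lower and 0 higher, with a median of -0.07, against 3.07% lower and 4.43% higher over all features. Tnnc2, the troponin C of fast fibres, had a direct ratio of -0.44, a dye estimate of 0.69 and spots of -1.17 and -1.09, while through BALB the spots were 0.10 and -0.10. The fast troponins Tnnt3 and Tnni2 had spots of -0.50 and -0.34, and of -0.15 and -0.07. In the fit the median of the list was -0.33 and 1 feature, Pvalb, passed at the FDR of 10%.

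Structural genes of the sarcomere differed in both directions, and several of the lower ones were higher through BALB. Nebulin, which spans the thin filament, had 4 features that share this gene. Their spots were -1.66 and -1.48 (AF203899), -1.12 and -1.06 (AF203898), -0.64 and -0.68 (X70032), and -0.61 and -0.67 (U58108). Through BALB all 4 features were above 1 in both spots, between 1.12 and 1.80, and in the fit they lay between -0.07 and 0.42 with unadjusted p of 0.389 to 0.972. The direct ratios of the 4 were between -0.15 and 0.12, and the size of the difference came from dye estimates of 0.74 to 1.42. For AF203899 that estimate was the mean of 3.39 for DBA 1 over BL6 1 and -0.55 for BL6 1 over DBA 2. BL6 1 is in Cy3 on the first of these arrays and in Cy5 on the second, so a difference between DBA and BL6 would set the ratios apart. The level of BL6 1 cancels in their mean, which holds the dye effect and any difference between DBA 1 and DBA 2. The authors name nebulin among structural muscle genes with low levels in BL6. That difference was not tested here.

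Tcap, the telethonin that caps titin at the Z-disc, had a direct ratio of -0.52 and spots of -1.49 and -1.48, with 0.68 and 0.68 through BALB. Pdlim5, a Z-disc protein with LIM domains, had spots of -1.40 and -1.15, with 1.70 and 1.78 through BALB. Neither passed in the fit, at limma adjusted p = 0.794 and 0.966. Other members were higher in BL10. Actn2, the alpha-actinin of the Z-disc, had spots of 0.93 and 1.04 and, through BALB, of 1.13 and 1.27, with 1.05 in the fit (SE 0.27, limma unadjusted p = 0.004, not past the FDR). Tpm2, named above, had spots of 0.53 and 0.73 through BALB. The stress-responsive Ankrd2 had spots of 1.68 and 0.63, which differ from each other by over 1, with -0.13 and 0.10 through BALB. Of 28 sarcomere features, 4 were past 1.5-fold higher in both spots and 9 lower, with a median of -0.26. The shares over all features were 0.857% higher and 1.16% lower. Through BALB 9 were higher and 1 lower, with a median of 0.33, against 4.43% higher and 3.07% lower over all features. The 4 nebulin features, which share a gene, are among both the 9 lower by the dye-corrected difference and the 9 higher through BALB.

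The marker list of skeletal muscle, with 13 features of 10 genes, shares features with the lists above and is not a separate result. By the dye-corrected difference 7 of 13 were past 1.5-fold lower in both spots and 0 higher, against 1.16% and 0.857% over all features. The 7 were the 4 nebulin features, Pvalb, Tnnc2 and Atp2a1, all named above. Means of the 13 ran from -1.57 to -0.11 with a median of -0.64. Through BALB 1 was lower and 4, the nebulin features, were higher, with a median of 0.18, and in the fit the median was -0.07. Over all features, 3.07% were lower and 4.43% higher through BALB. Creatine kinase (Ckm), desmin (Des) and myoglobin (Mb) had means of -0.20, -0.23 and -0.16. The skeletal actin Acta1 was lower in all 4 spots, at -0.49 and -0.55 and, through BALB, at -0.54 and -0.44. The dye estimate of the list had a median of 0.62 against 0.04 over all features, and the direct ratio one of -0.06.

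The dye estimate bore on the lower features more than on the higher ones. Of the 13 higher in BL10, 11 had a direct ratio that was past 2-fold in both spots before any dye was subtracted. Of the 13 lower, 3 had one, Chrna4, Nme2 and Fhit. A dye estimate above 0.5 was found for 11 of the 13 lower features and for 521 of all 7697 (6.77%). The lower features were counted after this same estimate was subtracted, so a high estimate among them is in part built into the count. Across features the direct ratio and the dye estimate correlated at r = 0.762, and the 2 ratios behind the estimate at r = 0.509. With the dye effect of the fit of 8 arrays in place of this estimate, 13 features were higher and 6 lower, of which 11 and 5 were among those above. With the mean ratio round the loop of 6 arrays, 13 were higher and 3 lower, with 11 and 3 shared. That loop includes the array labelled BALB 1 over CBA 2, one of the 2 with identical values. The median of the skeletal muscle markers was then -0.32 and -0.11 in place of -0.64. A difference between DBA 1 and DBA 2 and the dye effect cannot be told apart in the 2 arrays behind the estimate.

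**Figure D3:**
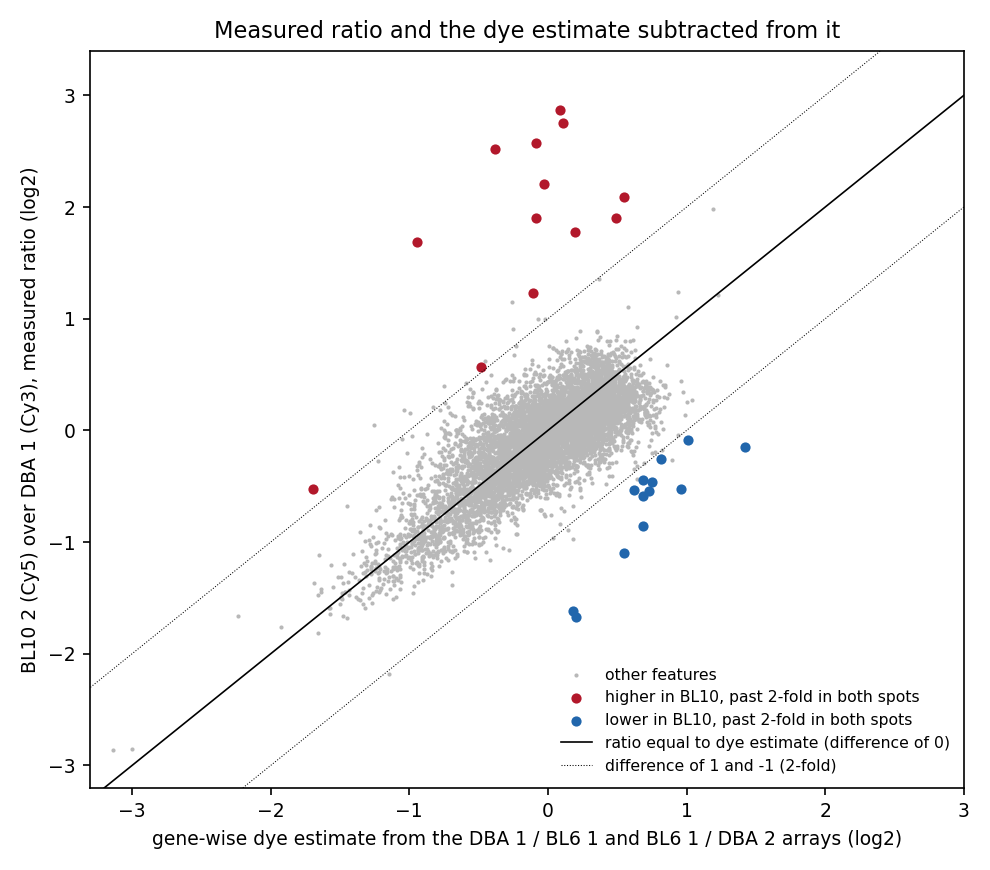
The measured log2 ratio of BL10 2 over DBA 1 (y axis) against the gene-wise dye estimate subtracted from it (x axis, log2), for 7697 features, with the line of equal values solid and differences of 2-fold dotted. Most features higher in BL10 have a dye estimate near 0 and a ratio above 1, whereas 11 of the 13 features lower in BL10 have a dye estimate above 0.5 and 3 have a ratio below -1 in both spots.

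The 3 lower features whose direct ratio was itself past 2-fold were not genes of the contractile apparatus. Chrna4, the alpha-4 subunit of the nicotinic acetylcholine receptor of neurons, had a direct ratio of -1.67, ratios of 0.20 and 0.21 on the other 2 arrays and spots of -1.74 and -2.02. Through BALB its spots were -0.36 and 0.54, and the fit gave -1.01 (SE 0.36, limma adjusted p = 0.719). Nme2, a nucleoside diphosphate kinase, had a direct ratio of -1.61 and spots of -1.76 and -1.83. Fhit, which cleaves diadenosine triphosphate, had a direct ratio of -1.10 and spots of -1.60 and -1.69. Through BALB both were higher in BL10, Nme2 at 2.30 and 2.13 and Fhit at 2.58 and 2.71. For these 2 genes, therefore, the comparisons pointed in opposite directions with close spots in each.

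Igfbp5, a binding protein of insulin-like growth factors, was lower in both comparisons. Its direct ratio was -0.86 and the spots were -1.53 and -1.56, with -0.87 and -0.89 through BALB. It did not pass in the fit, at -1.22 (SE 0.23, limma adjusted p = 0.339). Hbs1l, a translation factor that rescues stalled ribosomes, had spots of -0.79 and -0.80, with -1.19 and -1.21 through BALB and a limma adjusted p of 0.258. The ATPase Vcp had spots of -0.63 and -0.70, with -0.97 and -0.84 through BALB (limma adjusted p = 0.438). The transcription factors Foxd4 and Zeb2 had limma adjusted p of 0.63 and 0.719, with spots between -0.70 and -0.48. Among named features in the other direction, the smallest adjusted p without a call was that of Npff, followed at 0.339 by Rny3, by Fgfr4 and by Pkmyt1. Fgfr4, a receptor of fibroblast growth factors that regenerating muscle uses, had spots of 1.12 and 0.86 and, through BALB, of 0.81 and 0.75. Pkmyt1, a kinase that holds cells before mitosis, had spots of -0.03 and 1.77. The complement gene C1qa, a marker of macrophages, was at 0.34 and 0.92 and, through BALB, at 1.14 and 1.58 (limma adjusted p = 0.502). Its direct ratio before the dye was subtracted was -0.32. Of 12 macrophage markers, 0 were past 1.5-fold in both spots of the dye-corrected difference, while through BALB 3 were higher, C1qa, the lysozyme Lyz1 (0.91 and 1.44) and Cd68 (0.62 and 0.92). The part of macrophages in the samples was not tested.

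The last lower features were of general function. Msrb3, which repairs oxidised methionine, had spots of -1.17 and -1.26 and, through BALB, of -0.22 and 0.25. The proteasome subunit Psmb5 had spots of -1.11 and -1.19, with 1.28 and 1.87 through BALB, and it was the only 1 of 35 features named for the proteasome and its assembly past 1.5-fold in both spots of the dye-corrected difference. Ccng1, cyclin G1, lay just inside the threshold at -1.11 and -1.03, with -0.02 and 0.16 through BALB. Just outside were the glutamine synthetase gene Glul, at -1.41 and -0.91, and the muscle gene Cmya5, at -0.90 and -1.10.

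Dystrophin and its complex gave small values by the dye-corrected difference, with 1 call. Dystrophin itself had 2 features, with spots of -0.35 and -0.24 (NM_007868) and of 0.03 and -0.25 (U15218). In the fit they were at -0.18 (SE 0.17) and -0.21 (SE 0.16), with limma adjusted p of 0.807 and 0.761. Utrn, the utrophin that resembles dystrophin, had spots of 0.20 and -0.17. Of the sarcoglycans, Sgcb was the 1 member of 19 features past 1.5-fold in both spots, lower at -0.81 and -0.71, while through BALB it was at -0.17 and 0.09 and its direct ratio was -0.33. Sgca had spots of -0.29 and -0.52, Sgcd of -0.49 and -0.24 and Sgce of -0.23 and -0.43. Through BALB, Sgce was the 1 feature of the 19 past 1.5-fold in both spots, in the other direction, at 0.70 and 0.86. The median of the complex was -0.20 by the dye-corrected difference, 0.02 through BALB and -0.08 in the fit.

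Genes that are studied as modifiers of dystrophy had no call by the dye-corrected difference, and a few had one through BALB. The ligand Tgfb1 had spots of -0.49 and -0.06, the inhibitor of muscle growth Mstn of -0.21 and 0.06, and the membrane repair gene Anxa6 of -0.13 and -0.10. Through BALB, Tgfb1 had spots of -0.28 and 0.23, Mstn of 0.28 and 0.76 and Anxa6 of 0.49 and 0.79. The features of dystrophin, utrophin, these sarcoglycans and these 3 genes, 10 features of 9 genes in all, had estimates in the fit between -0.41 and 0.24, and their smallest limma adjusted p was 0.722. Of 26 features of TGF-beta signalling and dystrophy modifiers, 0 were past 1.5-fold in both spots in either direction, with a median of -0.10. Through BALB 2 were higher and 0 lower, decorin (Dcn) at 1.42 and 1.87 and the signal transducer Smad4 at 0.59 and 1.24. Of 48 features of collagens and matrix 0 were past it, with a median of 0.06, and Col1a1, at 0.61 and 0.55, was the nearest. Through BALB 5 of the 48 were higher and 1 lower, with a median of -0.01, and the largest was that of the fibrillar collagen Col3a1, at 1.55 and 1.77. Of 13 features of membrane repair and calpain genes 0 were past it, while through BALB 1 was higher, the dysferlin gene Dysf at 0.65 and 0.79. A p that misses the threshold with 2 animals of each strain leaves room for differences well above the SE. The SE had a median of 0.182 over all features, and Igfbp5, at -1.22 with an SE of 0.23, did not pass.

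Respiratory chain features past 1.5-fold by the dye-corrected difference were lower, while those past it through BALB were other features and mostly higher. Of 30 features of the respiratory chain, 4 were past 1.5-fold lower in both spots and 0 higher, with a median of -0.28. They were the ATP synthase subunits Atp5j and Atp5pb, at means of -0.77 and -0.63, cytochrome c (Cycs) at -0.67 and the oxidase subunit Cox5a at -0.64. The means of these 4 through BALB were -0.56, 0.12, 0.67 and 0.46 in the same order, and none was past 1.5-fold in both spots. Through BALB, 9 of the 30 were higher and 1 lower, with a median of 0.48, and in the fit the median was 0.05. Of 25 features of glycolysis and glycogen 0 were past 1.5-fold in both spots, with a median of -0.05, and through BALB 2 were higher and 0 lower, with a median of 0.36. Of 44 features whose symbols begin like those of ribosomal proteins, among them the kinase Rps6kb2, 2 were lower and 0 higher, Rpl30 and Rpl7, and through BALB 2 were higher and 2 lower. Of 51 features of heat shock and chaperone genes, a list that by its names also holds the matrix gene Hspg2 and the transcription factors Hsf2 and Hsf4, 2 were lower and 0 higher. These were Hspd1, with spots of -0.85 and -1.07, and Hsph1, with -0.75 and -1.06. Through BALB 1 of the 51 was higher and 2 were lower. Over all features, 4.43% were past 1.5-fold higher through BALB and 3.07% lower. By the dye-corrected difference these shares were 0.857% and 1.16%. The counts of the lists were not tested against the shares over all features.

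By the dye-corrected difference, the remaining lists had no member past 1.5-fold in both spots except Fgfr4, named above, in the list of 27 features of satellite cells and regeneration. This held for 16 features of histocompatibility and complement, for 13 immediate early genes, for 13 genes of the circadian clock and for 9 loci with known alleles in the DBA or C57BL line. In the last list Tyrp1, the pigment gene behind the brown coat of DBA, was the nearest to the threshold, at -0.30 and -0.28. Through BALB, 4 of the 27, 4 of the 16, 0 of the 13 immediate early genes and 1 of the 13 clock genes were higher and 0 lower, and 2 of the 9 loci, Klrd1 and Car2, were lower and 0 higher. The 4 of the 16 were Serping1, H2-Q2, B2m and C1qa, with spots between 0.97 and 1.58. The invariant chain gene Cd74 had a mean of 1.15 from spots of 0.46 and 1.83, and so was not counted. Markers of lymphocytes (7 features), fibroblasts (7), endothelium (7), Schwann cells (5) and smooth muscle (3) had 0 past 1.5-fold in both spots of the dye-corrected difference. Through BALB 3 of 7 fibroblast features were higher, Dcn, Col3a1 and Fbln2, and 2 of 5 Schwann cell features were, Mbp (1.22 and 1.80) and Pmp22 (0.73 and 0.77). Of the lymphocyte features 1 was lower, Ptprc, and of endothelium and smooth muscle 0 passed in either direction. The part of these cell types in the samples was not tested.

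**Figure D4:**
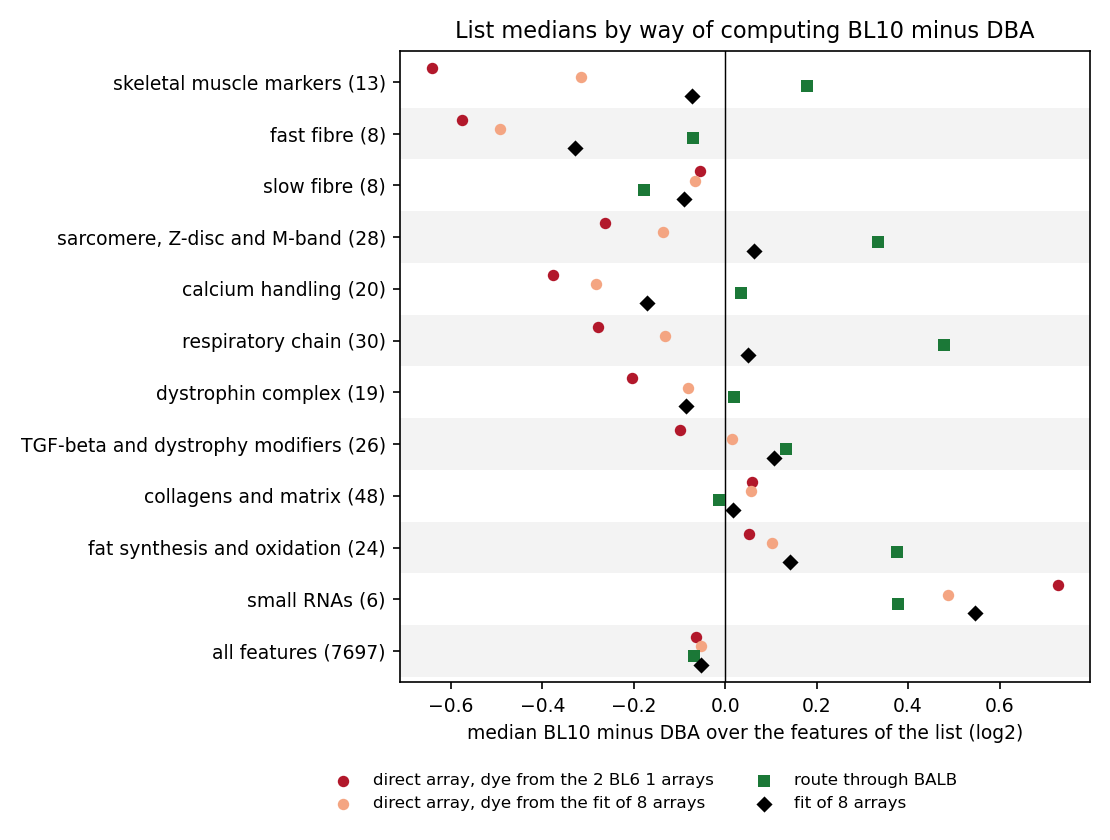
Medians of BL10 minus DBA in log2 (x axis) over the features of each list, with the number of features in brackets. Circles are the direct array with either dye estimate, squares the route through BALB and diamonds the fit of 8 arrays. The skeletal muscle markers run from -0.64 to 0.18 and the respiratory chain from -0.28 to 0.48 by the way of computing, while the small RNAs lie above 0 in each and all features lie near -0.06.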

How the data were processed

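The deposited values, per the study's methods, came from total RNA labelled with Cy5 or Cy3, hybridised to spotted oligonucleotides, extracted with GenePix Pro 3.0, corrected for local background and normalized by VSN in R. The authors deposited 1 natural log ratio for each of 15552 spots. The deposited table states neither the base of the logs nor the direction of the ratio. Natural logs of Cy5 over Cy3 were inferred from VSN and the dyes in the labels, and every fold and direction rests on this. Flagged spots are not identified and brightness is not given, so precision was taken from duplicate spots and from the number of arrays.

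The ratios were put on the log2 scale and the median of each array was subtracted. Duplicate spots (648 places apart) gave 7776 features, and 80 features of 1 control were averaged, leaving 7697, of which 6752 had 1 symbol. Symbols came from the array's annotation updated through a RefSeq table, where 6831 of the 7776 had 1 symbol, 7 several and 938 none. The members and gene lists were chosen with earlier results of these data known. Text values follow a rule: the 12 highest and 12 lowest named features past 2-fold in both spots, the 6 with the smallest adjusted p each way, up to 4 members of each list past 1.5-fold, and a fixed set of dystrophy genes. Ccng1, Glul, Cmya5, the features with no name and other list members were added with their values known.

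The test was limma 3.58.1 in R 4.3.3 with strain and gene-wise dye terms and a ratio of animal to array variance of 0.446 estimated by restricted maximum likelihood, which left 3 residual degrees of freedom. Two-sided p-values were adjusted by the Benjamini-Hochberg method. Steps were tested on simulated data. Tables were handled and figures drawn in Python 3.11.15 with pandas 2.3.3 and matplotlib 3.10.9. Alternatives were either spot alone, no centring, equal array spreads, other dye estimates, other folds and FDRs, arrays as independent, all 10 arrays, robust and ordinary tests, and leaving out each animal.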

Additional observations from a re-analysis of the deposited data

Results flagged for a closer look

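In 6 features the 2 comparisons pointed in opposite directions with both spots past 2-fold in each. Nme2 was at -1.79 by the dye-corrected direct array and at 2.22 through BALB, and Fhit was at -1.64 and 2.64. The nebulin features were at -1.57 and 1.61 (AF203899) and at -1.09 and 1.16 (AF203898), Pdlim5 was at -1.27 and 1.74, and Psmb5 at -1.15 and 1.58. The difference between the comparisons was not tested. They share DBA 2, which has a weight of 0.5 in the first and of -1 in the second, so that any difference of that animal enters them with opposite signs.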

How the results depend on the processing

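For the dye-corrected difference, the count of features higher in BL10 (13) was 45 and 61 with the first or second spot alone, 66 at 1.5-fold and 24 by the mean of the spots. The count lower (13) was 48, 35, 89 and 21, and it was 200 with no dye subtracted, 6 with the dye of the fit and 3 with that of the loop of 6 arrays. Through BALB, the counts of 116 higher and 10 lower were 73 and 6 with arrays scaled to equal spread, 205 and 136 with the first spot, 215 and 74 with the second and 341 and 236 at 1.5-fold, and 47 were lower by the mean of the spots. In the fit, the 4 higher and 1 lower were 1 and 0 with the first spot, 2 and 0 with the second, 11 and 3 with scaled arrays, 1 and 0 with no dye term, 0 and 0 without the direct array or with the ordinary test, and 0 were lower with all 10 arrays or at an FDR of 5%. Leaving out each animal gave 3 to 676 higher and 0 to 810 lower. The upper ends came from leaving out BL6 1 or DBA 1, which leaves the BALB route with 1 residual degree of freedom, and 32 and 35 came without BALB 2, which leaves the 3 arrays of the dye-corrected difference. Without BL10 1 or BL10 2 the counts were 11 and 2, without CBA 1 or CBA 2 they were 7 and 0, and without BALB 1 they were 3 and 0. Leaving out DBA 2 could not be fitted, since strain and dye can then not be separated. The r between spots (0.455) was 0.813 with no dye subtracted, 0.547 with the dye of the fit and 0.52 with scaled arrays. The r of the direct ratio with the BALB route (-0.02) was 0.10 with the first and -0.12 with the second spot. Tbca reversed to -0.52 with no dye subtracted, and the estimate of C1qa in the fit reversed to -0.052 with no dye term and -0.10 with all 10 arrays. The cause of these changes was not tested. No paired analysis was possible because the numbers of the animals only name them. Spot brightness is not given, so what it limits cannot be stated.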
